A study of Homo sapiens with 6 samples.

Results

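The 10 genes described here code for the building blocks of the actin and microtubule cytoskeleton in MDA-MB-231, a triple-negative breast cancer cell line of mesenchymal character. They are the cytoplasmic actins ACTB and ACTG1, the alpha-tubulins TUBA1A, TUBA1B and TUBA1C, the beta-tubulins TUBB, TUBB2A, TUBB4B and TUBB6, and the gamma-tubulin TUBG1. They were chosen by name out of 60708 genes in the count tables, with earlier results of these data known. The cells were transfected at 25 nM for 18 h with a miR-99b-5p mimic or with a scrambled control, and RNA was then taken from the AGO2 immunoprecipitate (AGO2-IP) and from the flow-through that the antibody left behind. Of the 6 libraries, 2 were mimic AGO2-IP, 2 were mimic flow-through, 1 was control AGO2-IP and 1 was control flow-through. All groups were of this one line, and the labels name no genetic change and no other agent. The comparison of AGO2-IP with flow-through asks which mRNAs were held by Argonaute, and the comparison of mimic with control asks whether the added microRNA changed that.

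Actin monomers polymerise into filaments that give the cell its cortex, stress fibres and protrusions. Alpha- and beta-tubulin form the dimer from which microtubules grow, and gamma-tubulin sits in the ring complex that nucleates them. The mRNAs of actin and tubulin are among the most abundant of most cells, which is why ACTB and some tubulins are used as reference genes. Cells also watch the amount of free tubulin: TTC5 recognises the first residues of a nascent tubulin chain and starts the decay of its mRNA. AGO2 is the protein that holds a mature microRNA, and an mRNA is bound mainly through pairing with bases 2 to 8 of that microRNA, its seed.

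Library facts bear on all values below. The mimic libraries held 38022779 to 48544756 read pairs in genes, and the control flow-through and control AGO2-IP held 7772149 and 8076375. In the mimic libraries 21.4 to 47.2% of pairs were in no gene, against 92.3 and 95.0% in the 2 control libraries, where most pairs mapped to several places. Mitochondrial genes took 43.4% of the gene counts of the control flow-through and 3.48% of those of the control AGO2-IP, but at most 0.125% in any mimic library. The part of these differences in the results was not tested. The line's markers VIM, CD44, EGFR, CAV1 and AXL lay between 59.0 and 2729 CPM (the count of a gene scaled to the gene total of its library) in every library, while ESR1, PGR, EPCAM and CDH1 did not exceed 11.8 CPM and ERBB2 lay between 37.7 and 172 CPM. Counts are shares of a library, so less RNA of a gene cannot be told apart from more RNA of others, nor fewer cells from less RNA per cell.

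The transfected microRNA and the 2 others that share its seed in the reference are shown first, since the seed defines which stretches of the actin and tubulin transcripts could pair. The mature sequences are from RefSeq (GRCh38.p14), written 5′ to 3′ with bases 2 to 8 in capitals, and miR-99b-5p lies at chr19:51692618-51692639 on the plus strand.
miR-99b-5p: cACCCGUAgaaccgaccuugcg
miR-99a-5p: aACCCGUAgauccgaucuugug
miR-100-5p: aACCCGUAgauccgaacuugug
The seed match was searched on the sense strand of the transcripts in 4 nested forms: the 6mer ACGGGT, which pairs with bases 2 to 7, the 7mer TACGGGT, which adds base 8, the 7mer ACGGGTA, which adds an A opposite base 1, and the 8mer TACGGGTA, which holds both. Every longer form contains the 6mer. Of 19942 protein-coding genes, 14.9% held the 6mer in their canonical transcript, 2.68% TACGGGT, 2.65% ACGGGTA and 0.522% the 8mer. Of the 10 actin and tubulin genes, 3 held the 6mer and 0 held any longer form, in the canonical or any other annotated transcript. The letters were found in TUBA1A, TUBA1C and TUBB6, and not in ACTB, ACTG1, TUBA1B, TUBB, TUBB2A, TUBB4B or TUBG1. The 5 matches are printed with 12 bases on either side, the 6mer in capitals, because they are the only stretches found in the canonical transcripts of the set that pair with bases 2 to 7 of the mimic, and none extends to base 8.
TUBA1A coding sequence, chr12:49185973-49185978, minus strand: gccgaccagtgcACGGGTctccagggcttc
TUBA1C coding sequence, chr12:49269627-49269632, plus strand: ttcttcagtgaaACGGGTgctggcaagcat
TUBA1C 3′UTR, chr12:49273747-49273752, plus strand: gtaagtgaggaaACGGGTtcagattgagcc
TUBB6 coding sequence, chr18:12325072-12325077, plus strand: atctttggccagACGGGTgcagggaacaac
TUBB6 coding sequence, chr18:12325984-12325989, plus strand: ctgcactggttcACGGGTgagggcatggat
A match of letters is no evidence of binding, and only 1 of the 5 lies in a 3′UTR, where most known microRNA sites are.

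The members of a class are close copies of each other, which matters for reads that must be placed in one gene. The first 30 coding bases show this, with capitals at positions where the printed members of a class differ (GENCODE 44, GRCh38, 5′ to 3′ on the coding strand). These bases also code for the residues that TTC5 reads in the tubulins. The start codons lie at chr7:5529655-5529657 in ACTB and chr17:81512352-81512354 in ACTG1, both on the minus strand.
ACTB: atggaTgaTgaTatcgccgcgctCgtcGtC
ACTG1: atggaAgaAgaGatcgccgcgctGgtcAtT
TUBA1A, TUBA1B and TUBA1C: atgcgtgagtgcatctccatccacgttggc
TUBB: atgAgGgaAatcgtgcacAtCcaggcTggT
TUBB2A: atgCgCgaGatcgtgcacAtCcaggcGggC
TUBB4B: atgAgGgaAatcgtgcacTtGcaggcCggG
TUBB6: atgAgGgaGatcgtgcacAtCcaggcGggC
Over these 30 bases the actins differed at 6 positions and the beta-tubulins at 7, whereas the alpha-tubulins were identical. Over the whole coding sequence ACTB and ACTG1 shared 91.2% of bases, the alpha-tubulins 95.9 to 97.2% and the beta-tubulins 81.0 to 87.2%. Of all windows of 150 bases in the canonical transcript, 48.7% of those of TUBB2A were found unchanged in another gene, mainly TUBB2B, as were 19.1% of TUBA1B, 8.01% of TUBA1A, 7.22% of TUBA1C, 6.24% of TUBG1 and 2.66% of TUBB. No window of that length was shared for ACTB, ACTG1, TUBB4B or TUBB6. Reads placed in several genes were not counted, so TUBB2A is the member most open to reads lost to a copy. The margin depends on the window. With windows of 50 bases the share was 64.6% for TUBB2A, 62.7% for TUBA1B and 47.3% for TUBA1A, and with 100 bases it was 55.6%, 37.2% and 21.2%. TUBA1B is thus open to such loss as well. The 83 annotated pseudogenes of the actin and tubulin families took few reads, between 104 counts in the control flow-through and 764 in the second mimic flow-through library, or 0.0397 to 0.137% of the counts of the members. The pseudogene with most counts was TUBBP1, a copy of TUBB.

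The unstranded count leaves out a read pair that lies where genes of opposite strands overlap, and several tubulin genes have such a partner. Each strand column held 49.0 to 55.1% of the gene counts as the first strand, so the libraries do not mark strand and the sum of both strand columns keeps those pairs. For ACTB, ACTG1 and TUBB2A the sum was at most 1.01 times the unstranded count in every library. For TUBA1B, which overlaps the antisense gene TUBA1B-AS1, it was 4.41 and 3.49 times with mimic AGO2-IP, 3.34 and 2.41 times with mimic flow-through, and 4.52 and 4.67 times for the control AGO2-IP and flow-through. The unstranded count therefore left out the largest share of pairs at TUBA1B, and a larger share in both mimic AGO2-IP libraries than in either mimic flow-through library. Whether those pairs came from TUBA1B or from TUBA1B-AS1 is not known. For TUBB6, which overlaps AFG3L2, the ratio was 1.15 and 1.13 for mimic flow-through but 2.42 and 1.91 for mimic AGO2-IP. For TUBA1C, which overlaps TUBA1A among other genes, it was 1.95 to 2.78. For TUBB it was 1.39 to 1.69, for TUBG1 1.11 to 1.52, for TUBB4B 1.05 to 1.39 and for TUBA1A 1.06 to 1.39. Without strand, pairs from a gene and from its antisense partner cannot be told apart, so the results of these genes are given on both counts.

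**Figure D1:**
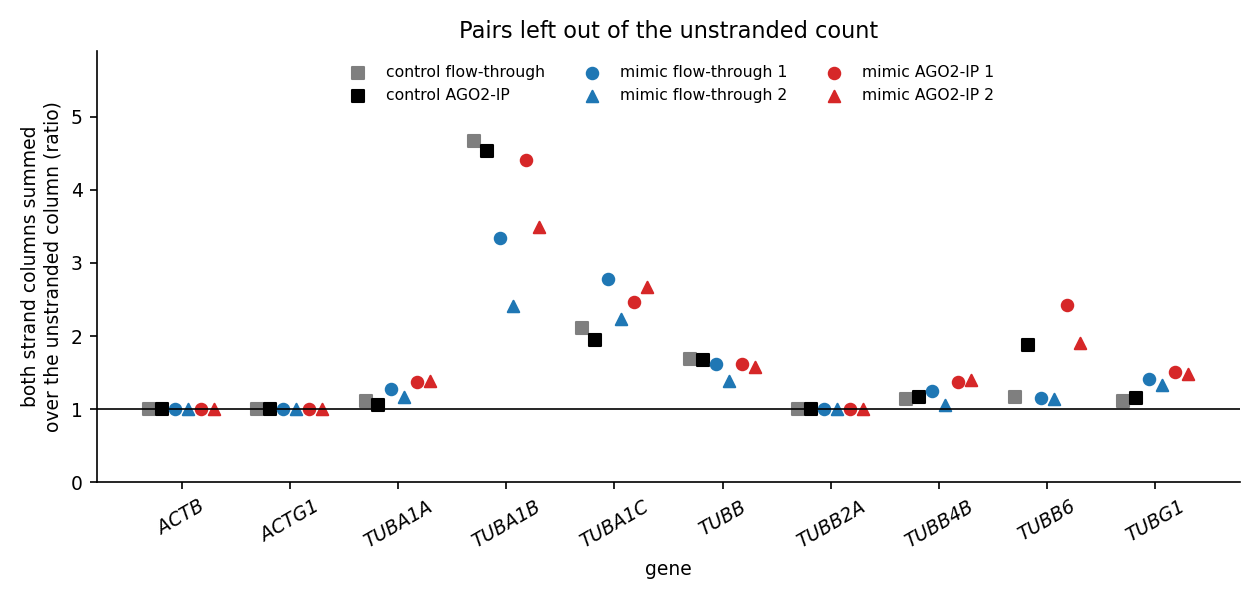
Sum of the 2 strand columns over the unstranded count (vertical axis, a ratio) for each gene (horizontal axis), 1 point per library with colour and shape naming the library. TUBA1B stands highest, between 2.41 and 4.67, TUBB6 separates the AGO2-IP libraries (1.87 to 2.42) from the flow-through libraries (1.13 to 1.17), and both actins lie at 1.

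ACTB and ACTG1 were the most abundant members in every library, per kilobase too, and neither passed the test between mimic AGO2-IP and mimic flow-through, in which 0.245% of all genes were called higher and 0.413% lower. ACTB (chr7:5526409-5563902, minus strand) had 4041 and 10427 CPM in the 2 mimic AGO2-IP libraries, 6598 and 8474 CPM in the mimic flow-through, 8303 CPM in the control AGO2-IP and 6056 CPM in the control flow-through. The lowest and the highest of these values were both from mimic AGO2-IP, so the groups overlapped, and the group means were 7234 ± 4515 (SD, n = 2) and 7536 ± 1327 CPM (SD, n = 2). The log2 fold change of AGO2-IP over flow-through was -0.13 with a standard error (SE) of 0.64 and an adjusted p of 0.917 (edgeR), and it lay above 0 at 0.42 (SE 0.49) once GC content was accounted for (a smooth trend on transcript GC taken out of every library). ACTG1 (chr17:81509413-81523847, minus strand), the gamma actin that is also expressed throughout the body, had 4270 and 7201 CPM in mimic AGO2-IP, 3923 and 5922 CPM in mimic flow-through, 5176 CPM in the control AGO2-IP and 2113 CPM in the control flow-through. The mimic groups overlapped again, and the control flow-through was the lowest of the 6 libraries. Its log2 fold change was 0.12 (SE 0.62, edgeR adjusted p = 0.922), and 0.65 (SE 0.41) with the GC trend removed.

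TUBA1B was the member with the lowest log2 fold change, and the member called most often when the processing was varied, in 4 of 18 alternatives. TUBA1B (chr12:49127782-49131397, minus strand) is a broadly expressed alpha-tubulin. On the unstranded count it had 88.4 and 192 CPM in mimic AGO2-IP, 440.0 and 704 CPM in mimic flow-through, 134 CPM in the control AGO2-IP and 142 CPM in the control flow-through. Both mimic AGO2-IP libraries lay below both mimic flow-through libraries. The log2 fold change was -2.13 (SE 0.69), with an unadjusted p of 0.0099 and an adjusted p of 0.115 (edgeR), so it was not called. TUBA1B passed with the replicate number as a block (-2.13, SE 0.70, adjusted p = 0.034, edgeR), where 5.08% of all genes were called lower, and with PyDESeq2 (-2.14, SE 0.71, adjusted p = 0.0241), where 8.24% were. It also passed with the block and the GC trend removed together (-1.92, adjusted p = 0.0013, edgeR), where 12.4% of genes were called lower, and without the first mimic flow-through library (-2.65, adjusted p = 0.0033, edgeR), where 20.6% were. That last fit has 1 flow-through library, which is assumed to vary like the AGO2-IP pair that alone supplies the spread.

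On both strand columns summed, TUBA1B was not called with or without the block. There it had 215 and 370.4 CPM per kilobase in mimic AGO2-IP, 798 and 938 in mimic flow-through, with 334 for the control AGO2-IP and 379 for its flow-through. The groups still did not overlap, but the log2 fold change was -1.66 (SE 0.61, edgeR adjusted p = 0.155) and -1.68 with the block (adjusted p = 0.0738, edgeR), in a fit that called 4.96% of genes lower. The value of TUBA1B is therefore smaller in size on the count that keeps the pairs shared with TUBA1B-AS1.

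The other alpha-tubulins had log2 fold changes nearer 0 and did not pass. TUBA1C (chr12:49188736-49274600, plus strand) had 194 and 248 CPM in mimic AGO2-IP, 235 and 350.3 CPM in mimic flow-through, 296 CPM in the control AGO2-IP and 131 CPM in the control flow-through. The mimic groups overlapped, with a log2 fold change of -0.50 (SE 0.62, edgeR adjusted p = 0.639) and -0.41 (SE 0.58) on the summed strand columns. TUBA1A (chr12:49184686-49189080, minus strand), the alpha-tubulin best known from developing neurons, had 39.1 and 37.0 CPM in mimic AGO2-IP, 76.4 and 63.9 CPM in mimic flow-through, 58.7 CPM in the control AGO2-IP and 42.6 CPM in the control flow-through. Its mimic groups did not overlap, but the log2 fold change of -0.92 (SE 0.59) had an adjusted p of 0.351 (edgeR), and it was -0.75 (SE 0.56) on the summed strand columns.

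In every pair of fractions TUBA1B made up less of the alpha-tubulin counts in AGO2-IP than in flow-through, a measure that needs no scaling between libraries. Per kilobase and on the summed strand columns, TUBA1B made up 54.2 and 60.7% of the counts of the 3 alpha-tubulins in mimic AGO2-IP and 75.8 and 76.4% in mimic flow-through. The control libraries were split in the same direction, with 60.6% in AGO2-IP and 76.3% in flow-through. TUBA1C took 38.5 and 34.8% in mimic AGO2-IP, 19.4 and 20.3% in mimic flow-through, and 33.4 and 18.4% in the AGO2-IP and flow-through of the control. The mean share of TUBA1B was 57.5 ± 4.58% (SD, n = 2) in mimic AGO2-IP and 76.1 ± 0.464% (SD, n = 2) in mimic flow-through. On the unstranded count the direction was the same and the shares were lower, at 37.1 and 51.7% in mimic AGO2-IP, 67.7 and 72.7% in mimic flow-through, and 37.0 and 54.8% in the AGO2-IP and flow-through of the control. Where TUBA1A and TUBA1C overlap, the summed columns count a pair for both genes. They also hold pairs that could be of other antisense partners such as TUBA1B-AS1, so neither count gives exact proportions of the alpha-tubulin mRNAs. No test was run on these shares, since the smallest two-sided p that an exact permutation test of 2 libraries against 2 allows is 0.333.

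**Figure D2:**
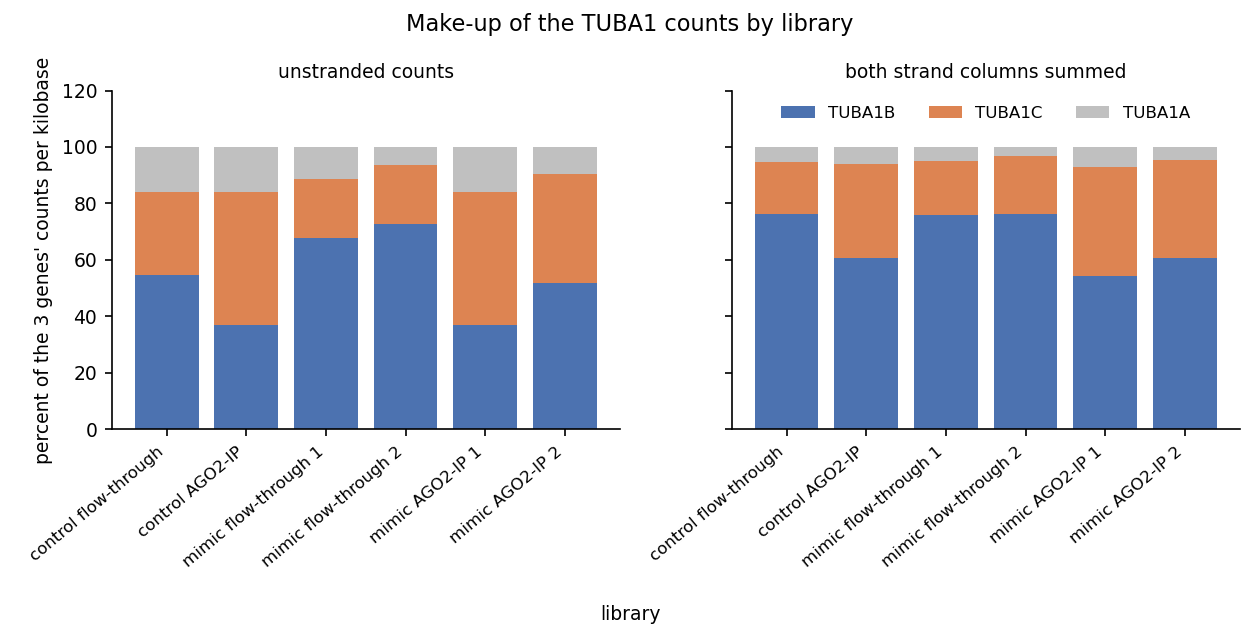
Share of TUBA1B, TUBA1C and TUBA1A in their summed counts per kilobase (vertical axis, percent) in each library (horizontal axis), on the unstranded count (left) and on both strand columns summed (right). On the right, TUBA1B takes 75.8 to 76.4% in the 3 flow-through libraries and 54.2 to 60.7% in the 3 AGO2-IP libraries.

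Of the beta-tubulins, 0 of 4 were called in edgeR on all libraries, and TUBB and TUBB6 had mimic groups that did not overlap. TUBB (chr6:30717435-30725538, plus strand), a beta-tubulin of most cells, had 600.1 and 971 CPM in mimic AGO2-IP, 1902 and 1111 CPM in mimic flow-through, 897 CPM in the control AGO2-IP and 825 CPM in the control flow-through. Its log2 fold change was -0.93 (SE 0.59, edgeR adjusted p = 0.349), and -0.86 (SE 0.58) on the summed strand columns. TUBB6 (chr18:12307669-12344320, plus strand), a divergent beta-tubulin, had 100.3 and 138 CPM in mimic AGO2-IP, 268 and 365 CPM in mimic flow-through, 168 CPM in the control AGO2-IP and 158 CPM in the control flow-through. Its log2 fold change of -1.50 (SE 0.62, edgeR adjusted p = 0.179) became -0.61 (SE 0.58, edgeR adjusted p = 0.544) when the strand columns were summed. With the GC trend removed it was -0.74 (SE 0.39). Without the first mimic flow-through library, in the fit that took its spread from the AGO2-IP pair and called 20.6% of genes lower, TUBB6 was called at -1.94 (edgeR adjusted p = 0.0074).

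TUBB4B and TUBB2A had overlapping mimic groups. TUBB4B (chr9:137241287-137243707, plus strand), a beta-tubulin of most tissues and of cilia, had 360.4 and 602 CPM in mimic AGO2-IP, 558 and 721 CPM in mimic flow-through, 516 CPM in the control AGO2-IP and 228 CPM in the control flow-through. Its log2 fold change was -0.49 (SE 0.61, edgeR adjusted p = 0.646), -0.19 (SE 0.59) on the summed strand columns and 0.44 (SE 0.41) with the GC trend removed. TUBB2A (chr6:3153497-3157544, minus strand), the beta-tubulin that shares most sequence with another gene, was the least abundant member, per kilobase too, with 14.7 and 25.9 CPM in mimic AGO2-IP, 32.7 and 21.1 CPM in mimic flow-through, 24.3 CPM in the control AGO2-IP and 15.2 CPM in the control flow-through. Its log2 fold change was -0.40 (SE 0.65, edgeR adjusted p = 0.733), and 0.34 (SE 0.55) with the GC trend removed.

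TUBG1 (chr17:42609641-42615238, plus strand), the main gamma-tubulin of the ring complex at centrosomes, had 39.6 and 55.7 CPM in mimic AGO2-IP, 154 and 63.2 CPM in mimic flow-through, 74.4 CPM in the control AGO2-IP and 89.6 CPM in the control flow-through. Both mimic AGO2-IP libraries lay below both mimic flow-through libraries, but the flow-through libraries differed 2.43-fold from each other. The log2 fold change of -1.13 (SE 0.62) had an adjusted p of 0.282 (edgeR). It was -1.03 (SE 0.60) on the summed strand columns, -0.60 (SE 0.57) with the GC trend removed and -0.38 (SE 0.48) with the block as well.

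**Figure D3:**
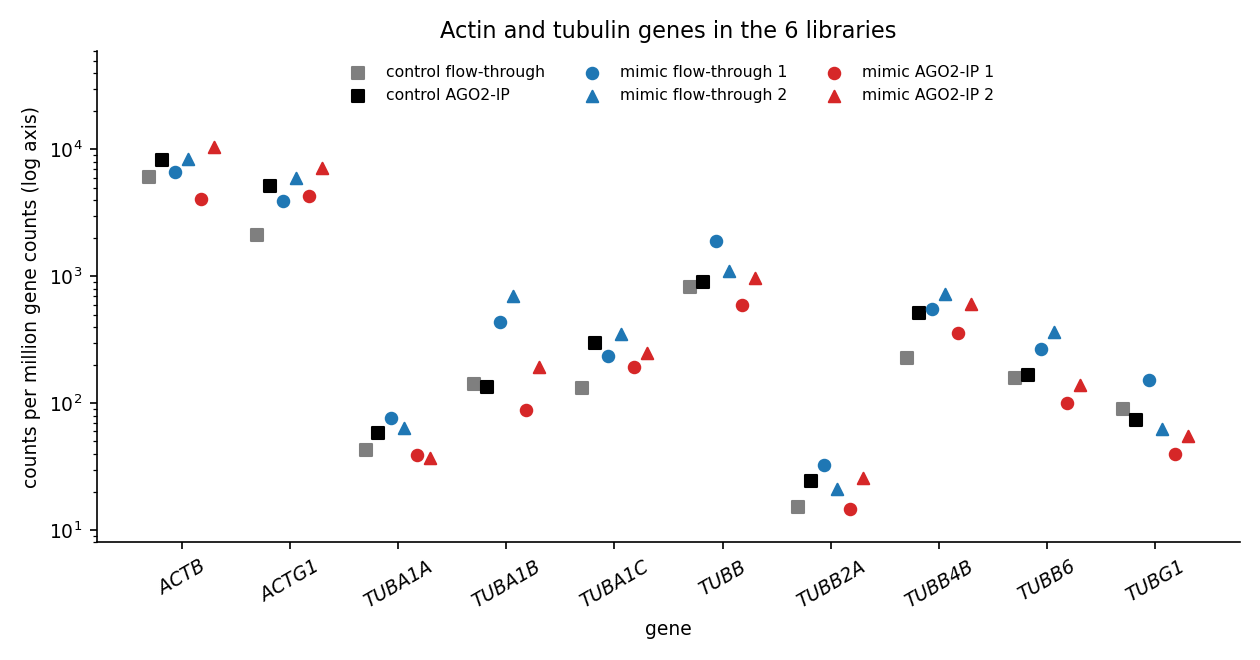
Unstranded counts in CPM (vertical axis, log scale) for each gene (horizontal axis), 1 point per library. The actins lie between 2113 and 10427 CPM, the tubulins between 14.7 and 1902 CPM, and TUBA1B shows the widest gap between the mimic flow-through (440.0 and 704 CPM) and the mimic AGO2-IP libraries (88.4 and 192 CPM).

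Taking the 10 genes side by side, 0 were called at an adjusted p of 0.05 and a fold change of 2 (1 on the log2 scale), with 2 at an unadjusted p under 0.05 (TUBA1B and TUBB6), as were 23.8% of all genes tested. All 10 passed the minimum of 200 counts. Over all 13078 genes tested, 32 were called higher and 54 lower in mimic AGO2-IP, so 0 of 10 lies near the background. Both mimic AGO2-IP libraries lay below both mimic flow-through libraries for 5 of 10 members (TUBA1A, TUBA1B, TUBB, TUBB6 and TUBG1), while 28.5% of all genes tested lay below. Both lay above for 0 of 10 members. The share of all genes lying above is not given here, so that count is not read as a result. The median log2 fold change of the members was -0.71, against -0.11 over all genes tested. It was -0.51 against -0.10 on the summed strand columns and -0.51 against -0.05 with the GC trend removed. On the unstranded count 9 of 10 members had a log2 fold change below 0, although ACTB, TUBB2A and TUBB4B lay above 0 once the GC trend was removed, ACTB also with looser count filters, and TUBA1C without the second mimic flow-through library. The share of all genes below 0 is not given here, and their median was itself below 0, so the 9 of 10 is not read as a trait of the members.

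The spread between replicates was large, and not only for these genes. Over all genes tested, the SD of the log2 difference between replicates was 0.84 in mimic AGO2-IP and 1.44 in mimic flow-through. In mimic AGO2-IP, 9 of 10 members were lower in replicate 1 than in replicate 2 after TMM scaling, with ACTB differing by -1.43 on the log2 scale, and 7 of 10 were lower in replicate 1 of the mimic flow-through. The share of all genes that were lower in replicate 1 was not computed, so these counts are not read as a trait of the members. Together the members took 0.975 and 1.99% of the gene counts in mimic AGO2-IP, 1.42 and 1.78% in mimic flow-through, and 1.56 and 0.98% in the AGO2-IP and flow-through of the control. The actins alone took 0.831 and 1.76% in mimic AGO2-IP and 1.05 and 1.44% in mimic flow-through, so the share of the cytoskeletal genes in the AGO2-IP libraries followed the actins and overlapped with the flow-through.

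**Figure D4:**
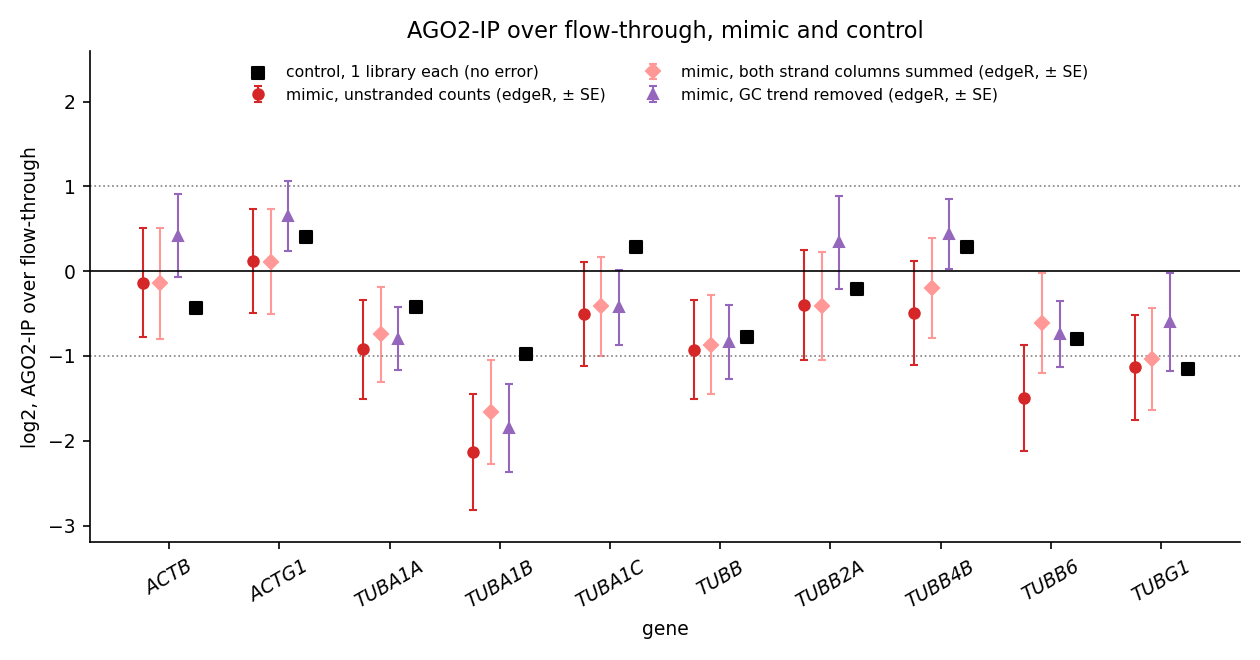
Log2 fold change of mimic AGO2-IP over mimic flow-through with its SE (edgeR) for each gene on the unstranded count, on both strand columns summed and with the GC trend removed, beside the log2 ratio of the single control libraries, which has no error (vertical axis, log2; horizontal axis, gene). Dotted lines mark a fold change of 2 either way; TUBA1B lies lowest in all 3 fits (-2.13, -1.66 and -1.85), and the actins lie between -0.14 and 0.65.

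By the sample titles, the scrambled control gives the same fraction comparison without the mimic, with 1 library a group and thus with no replicate check and no p-value. The study's own sample list names the control libraries as biological replicates and gives them no fraction, so every control value here holds only if the titles are right about the fraction. The log2 ratio of control AGO2-IP over control flow-through was -1.16 for TUBG1, -0.98 for TUBA1B, -0.80 for TUBB6, -0.77 for TUBB, -0.44 for ACTB, -0.43 for TUBA1A and -0.21 for TUBB2A. It was 0.28 for TUBA1C, 0.29 for TUBB4B and 0.40 for ACTG1. TUBA1B, TUBB6, TUBB and TUBG1 thus stood lowest in the control as well, and TUBG1 was the only 1 of 10 at or below -1, where 18.1% of 8245 genes lay. With the GC trend removed TUBG1 (-1.26), TUBA1B (-1.23) and TUBB (-1.02) were at or below -1. The share of all genes at or below -1 was not computed with that trend removed. Whether more members than background genes lay there is therefore not known, and the added members are not read as a result. Without the GC step, the median was -0.43 for the members and 0.01 for all genes. Scaled by library size alone, every ratio was higher by about the shift of the median of all genes, which was then 0.91, and the median of the members was 0.47, still below that of all genes. TUBB6 lay at -0.11 on the summed strand columns and TUBA1B at -1.02. The counts behind the control values ran from 118 (TUBB2A in flow-through) to 67061 (ACTB in AGO2-IP). The 95% Wilson intervals of the CPM values cover counting error only. The mean of their 2 arms was at most 18.1% of the value for TUBB2A and 0.901% for ACTB.

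Averaged over the 2 mimic libraries, the AGO2-IP levels of these genes lay close to the control, but the single libraries often fell on opposite sides of it. The log2 ratio of the mean of the 2 mimic AGO2-IP libraries over the control AGO2-IP was between -0.53 (TUBG1) and 0.23 (ACTG1), and 0 of 10 members were past 1 in size, where 34.7% of 11467 genes were. The median was -0.20 for the members and 0.02 for all genes, but it was 0.25 with the GC trend removed, 0.24 without the first mimic AGO2-IP library and -0.53 without the second, so it has no settled direction. TUBA1B lay at 0.09 (replicates -0.49 and 0.68), so its AGO2-IP level with the mimic was on both sides of the control. The same held for ACTB (-0.93 and 0.49), ACTG1 (-0.17 and 0.64), TUBB (-0.47 and 0.27), TUBB2A (-0.61 and 0.26) and TUBB4B (-0.41 and 0.38). The genes with a 6mer match lay at -0.49 (TUBA1A, replicates -0.48 and -0.51), -0.30 (TUBA1C, -0.50 and -0.09) and -0.38 (TUBB6, -0.63 and -0.12), and on the summed strand columns at -0.15, 0.06 and -0.21. They were below 0 in both replicates on the unstranded count, as was TUBG1 (-0.80 and -0.26), which has no match. With the GC trend removed TUBB6 lay at 0.23, and the members ranged from -0.25 (TUBA1A) to 0.73 (TUBB4B).

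In the flow-through, the mean of the mimic libraries stood above the control for some members and below it for others. The log2 ratio of mimic over control flow-through was 1.50 for TUBA1B (replicates 0.90 and 2.10), 1.01 for TUBB4B (0.56 and 1.45), 0.72 for ACTG1 (0.16 and 1.28) and 0.66 for TUBA1C (0.11 and 1.20). At least 1 was reached by 2 of 10 members, TUBA1B and TUBB4B, and by 10% of 12254 genes. TUBA1B came to 0.74 (0.38 and 1.10) on the summed strand columns, below that mark, and TUBB4B, the highest member there, to 0.96. With so few members past the mark, this count is not read as a trait of the tubulins. ACTB lay at -0.17 (-0.61 and 0.27) and TUBG1 at -0.33 (0.05 and -0.71). The median was 0.43 for the members and 0.05 for all genes, and without the second mimic flow-through library it was -0.02. Both comparisons rest on 1 control library each and have no p-value, and the control flow-through is the library with 43.4% mitochondrial counts.

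The order of the genes was set on CPM per kilobase of the canonical transcript, with both strand columns summed. In mimic flow-through ACTB stood first (3709), then ACTG1 (2289), TUBA1B (868), TUBB (818), TUBB4B (415), TUBA1C (227), TUBB6 (172), TUBG1 (83.3), TUBA1A (45.7) and TUBB2A (14.9). TUBA1B and TUBB, and TUBG1 and TUBA1A, were neighbours whose replicates overlapped, and the other neighbours did not overlap. In mimic AGO2-IP the order was ACTB (3597), ACTG1 (2691), TUBB (448), TUBB4B (384), TUBA1B (293), TUBA1C (182), TUBB6 (122), TUBG1 (39.9), TUBA1A (28.2) and TUBB2A (11.4). Here ACTB and ACTG1 overlapped, as did TUBB with TUBB4B and TUBB4B with TUBA1B. The orders differed in the place of TUBA1B, which ranked 3 in flow-through and 5 in AGO2-IP. On the unstranded count TUBA1B ranked 5 in both.

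Within the actins, the ratio of ACTG1 to ACTB per kilobase was 0.998 and 0.652 in mimic AGO2-IP, 0.561 and 0.66 in mimic flow-through, and 0.589 and 0.329 in the AGO2-IP and flow-through of the control. The mimic groups overlapped, and ACTG1 reached the level of ACTB in the first mimic AGO2-IP library alone. In log2 counts the ratio was 0.08 and -0.53 in mimic AGO2-IP and -0.75 and -0.52 in mimic flow-through, with -0.68 and -1.52 in the control AGO2-IP and flow-through. Within the beta-tubulins, TUBB4B per kilobase was 0.818 and 0.882 of TUBB in mimic AGO2-IP and 0.363 and 0.79 in mimic flow-through, and 0.643 and 0.302 in the control AGO2-IP and flow-through, on the summed strand columns. Both mimic AGO2-IP libraries lay above both mimic flow-through libraries in this ratio, by a small margin over the second, and on the unstranded count they overlapped.

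Other genes of the actin and tubulin pathways are described by list, each read against the background above and the median of -0.11 over all genes tested. Of 19 other actin and tubulin genes 5 had enough counts to be tested, 0 were called, and the median was -1.26, with delta-tubulin TUBD1 highest (1.70, edgeR adjusted p = 0.179) and the second gamma-tubulin gene TUBG2 lowest (-1.85, edgeR adjusted p = 0.152). Of 25 tested genes for tubulin folding, autoregulation and modification 0 were called higher and 1 lower, with a median of -0.55. The one called was PFDN1, a subunit of the prefoldin chaperone that hands actin and tubulin to the chaperonin, with 6.89 and 8.92 CPM in mimic AGO2-IP and 97.9 and 119 CPM in mimic flow-through (log2 fold change -3.86, SE 0.68, edgeR adjusted p = 0.0383) and a control log2 ratio of -3.14. The highest of that list was TTLL4, a glutamylase of tubulin (1.79, edgeR adjusted p = 0.147). Of 10 tested genes of the gamma-tubulin ring complex 0 were called, with a median of -0.16, between MZT2B (-1.67, edgeR adjusted p = 0.198) and MZT1 (3.40, edgeR adjusted p = 0.0921). The mimic flow-through libraries of MZT1 lay far apart, at 61.8 and 3.67 CPM, with 312 and 300.3 CPM in mimic AGO2-IP.

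Of 20 tested genes that bind actin monomers or sever or cap filaments 0 were called higher and 1 lower, with a median of -0.75. The one called was TMSB4X, thymosin beta-4, which sequesters actin monomers, with 109.9 and 191 CPM in mimic AGO2-IP, 2467 and 1702 CPM in mimic flow-through, 168 CPM in the control AGO2-IP and 1505 CPM in the control flow-through. Its log2 fold change was -3.80 (SE 0.65, edgeR adjusted p = 0.0383) and its control log2 ratio -4.05, so this gene was far lower in AGO2-IP in all 3 pairs of fractions, unlike the actins. The highest of that list was CAPZA2, a subunit of the capping protein (2.66, edgeR adjusted p = 0.0961). Its mimic flow-through libraries lay far apart, at 101.4 and 14.7 CPM, with 278 and 387 CPM in mimic AGO2-IP. Of 9 genes of the Arp2/3 complex, which nucleates branched filaments, 0 were called, with a median of 0.26, between ARPC1B (-2.62, edgeR adjusted p = 0.137) and ACTR3 (2.46, edgeR adjusted p = 0.0731). Of 24 genes for actin crosslinking and myosin 0 were called, with a median of 0.02, between TAGLN2 (-2.92, edgeR adjusted p = 0.0545) and EZR, which ties filaments to the membrane (1.76, edgeR adjusted p = 0.128). Of 22 microtubule-associated and motor genes 0 were called, with a median of 0.59, between the dynein light chain DYNLL1 (-2.34, edgeR adjusted p = 0.109) and the plus-end protein MAPRE1 (2.38, edgeR adjusted p = 0.0805). With the replicate number as a block, which called 4.60% of all genes higher and 5.08% lower, MZT1, CAPZA2, ACTR3 and MAPRE1 were called higher, and those called lower included PFDN1, PFDN4, TMSB4X, TMSB10, TAGLN2 and ZYX.

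Genes with the most similar course over the 6 libraries were looked up for ACTB, TUBA1B and TUBB among 4245 genes, by the root mean square (RMS) difference of log2 CPM centred on each gene's mean. For ACTB the nearest were RAPH1 (0.18), PPP1CA (0.18) and CASP2 (0.18), where the median gene was at 0.91. For TUBA1B they were PTBP1 (0.17), KRT18 (0.25) and KRT8 (0.28), where the median gene was at 1.37, and for TUBB they were PSMB2 (0.11), PPP2R5D (0.13) and NQO1 (0.15), where it was at 0.94. Among the members, TUBB6 was nearest to TUBA1B (0.49), TUBB2A to TUBB (0.27), and TUBB2A to ACTB (0.37), with ACTG1 at 0.47 from ACTB. The nearest genes were picked as the smallest distances among 4245, so that they lay closer to ACTB than ACTG1 did follows from the choice. These distances are descriptions over 6 libraries that share their depth and composition.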

How the data were processed

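The deposited files hold counts of read pairs per gene, unnormalised, which the authors made with FastQC 0.11.9, cutadapt 3.5 and STAR 2.7.11b on GRCh38, per the labels; the annotation release is not given in the sources used here. Each table has 1 unstranded column, used here, and 1 column per strand. Multimapping pairs are not in gene rows, and pairs in no gene (21.4 to 95.0% per library) stayed out of library sizes. Gene IDs were matched without version to GENCODE 44 (60463 of 60708), and coordinates are from GENCODE 44 on GRCh38. Groups came from the sample titles, which give the fraction of each control library, whereas the study's own sample list names the controls as biological replicates with no fraction; replicate numbers 1 and 2 of the mimic libraries are named biological replicates there, while each control fraction has 1 library.

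The mimic fractions were compared with edgeR 4.0.16 (R 4.3.3; TMM, quasi-likelihood test, summed count of at least 200 over the 4 libraries, Benjamini-Hochberg adjusted p up to 0.05 with a log2 fold change of 1 or more either way). The prior count of log2 CPM was 2. PyDESeq2 0.5.4, DESeq2 1.42.0 size factors, GC offsets (lowess, span 0.2), other filters, strand columns, left-out libraries and a replicate block were alternatives; the sum of the strand columns was added after the data were seen. Same-numbered mimic libraries deviated together with r = 0.324 over genes. The scripts were tested on simulated data. The members and lists were chosen with earlier results of these data known. The text names all members, the highest and lowest gene of each of 7 lists (genes called with the block were added after their values were seen), and the 3 genes nearest to ACTB, TUBA1B and TUBB. Interval bounds are 95% Wilson.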

Additional observations from a re-analysis of the deposited data

Results flagged for a closer look

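Of the 10 members and 14 other named genes, 0 members and 3 others moved to opposite sides with the mimic and with the scrambled RNA: the mimic AGO2-IP libraries both lay above (or both below) the mimic flow-through libraries, and the control log2 ratio of AGO2-IP over flow-through had the other sign. Among the 14, TUBD1, TUBG2 and ARPC1B had too few control counts for a control ratio and could not be flagged. CAPZA2 had a mean log2 CPM difference of 3.06 with the mimic and a control log2 ratio of -0.31. ACTR3 had 2.54 with the mimic and -0.43 in the control. MZT2B had -1.38 with the mimic and 0.22 in the control. These differences were not tested, as each control fraction is a single library. Scaled by library size alone, the control log2 ratios of CAPZA2 and ACTR3 were 0.59 and 0.48, the same sign as with the mimic, and that of MZT2B was 1.12.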

How the results depend on the processing

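Of 259 alternative values, 226 kept their direction, side of the threshold or range. A median was held to its range and not to its sign. The median of mimic over control AGO2-IP (-0.20) thus counts as kept at 0.25 with the GC trend removed and at 0.24 without the first mimic AGO2-IP library. The count of members called was 0, and 1 (TUBA1B) with the replicate block, with the replicate block and the GC trend removed, and with PyDESeq2; it was 0 to 2 when 1 library was left out. No other member's call changed with the block. The median log2 fold change of the members (-0.71) was -0.31 with a summed count of at least 10, where the median of all genes was -0.37, -0.38 with the replicate block and the GC trend removed, and -1.03 to -0.47 when 1 library was left out. ACTB turned to 0.28 and 0.063 with the minimum count of 10 and filterByExpr, to 0.42 and 0.25 with the GC trend removed without and with the block, and ranged from -1.06 to 0.399 when 1 library was left out. TUBB2A turned to 0.34 and 0.41 and TUBB4B to 0.44 and 0.39 in the same GC fits. ACTG1 turned to -0.021 on strand column 4 and ranged from -0.39 to 0.74, and TUBA1C from -0.99 to 0.0997, when 1 library was left out. The control median of -0.43 was 0.47 with library size alone, -0.32 on the summed strand columns and -0.64 with the GC trend removed. The mimic over control flow-through median of 0.43 was 0.90 with library size alone and -0.022 to 0.59 when 1 library was left out. The log2 ratio of ACTG1 over ACTB in the control AGO2-IP was -0.62 and -0.74 on strand columns 3 and 4. The causes were not tested. With 2 libraries a group and 1 control library a fraction, small differences of these genes could not be detected, and with the biological coefficient of variation at 0.527 the spread between libraries, not counting error, sets the limit.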
